A study of Mus musculus with 80 samples.

Results

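Nucleic acid sensors are the proteins with which a cell detects foreign or misplaced RNA and DNA. The 10 sensor genes considered here were chosen by name, with earlier results of these data known. Of them, 9 had a probe set annotated to a single gene in these arrays. Signal above the minimum used for testing was found for 8, out of 11406 genes tested and 17097 genes with a probe set. The 10 genes are Ddx58 (RIG-I), Ifih1 (MDA5), Dhx58 (LGP2), Zbp1, Eif2ak2 (PKR), Tlr3, Tlr7, Tlr9, Aim2 and Mavs. Each was read from its probe set of highest mean signal. No probe set carried Aim2 as its single symbol in the annotation supplied, so this sensor of cytosolic DNA is not analysed here, and Tlr9 lay below the minimum on all 80 arrays.

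The arrays measured RNA of whole lungs from adult male mice from Taconic, taken on the morning after one 6 h inhalation of styrene, a solvent that lung enzymes such as CYP2F2 oxidise. The groups were C57Bl/6 mice that lack CYP2F2 (KO), C57Bl/6 mice humanized for the human enzyme CYP2F1 (TG), CD-1 mice and C57Bl/6 wild type (WT). Each strain had 5 mice at 0 ppm (air), 10, 40 and 120 ppm, so 16 groups and 80 arrays, and the labels call the 5 samples of a group biological replicates. Neither the promoter of the CYP2F1 transgene nor how the knockout was built is stated in the labels. CD-1 is an outbred stock, so its mice also differ from each other genetically.

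RIG-I, MDA5 and LGP2 are related helicases that bind double-stranded RNA in the cytosol. RIG-I and MDA5 signal through MAVS, an adaptor on mitochondria, to the kinases that switch on type I interferon genes. TLR3, TLR7 and TLR9 sit in endosomes and read double-stranded RNA, single-stranded RNA and unmethylated CpG DNA. ZBP1 binds Z-form nucleic acid and can start cell death through RIPK3. PKR binds double-stranded RNA and stops translation by phosphorylating eIF2 alpha. Several of these genes are themselves induced by interferon, which in turn signals through STAT and IRF proteins to DNA elements of the GAAA type.

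For 7 of the 10 genes RefSeq promoter windows of 300 bases (250 before to 50 after the annotated start, build GRCm38.p6) could be read, and those of Dhx58, Zbp1 and Tlr7 were not in the table. The windows were searched on both strands for GAAA followed by any 2 bases and a second GAAA, a core of the interferon-stimulated response element, and for the shorter AANNGAAA, a core bound by IRF proteins, which every match of the longer motif contains. The longer motif occurred in 3.44% of all 32851 promoter windows of the table and AANNGAAA in 23.9%. The longer motif was found once each in the windows of Ddx58, Ifih1 and Eif2ak2. The shorter one was found in those 3 and in Tlr3, and neither was found in the windows of Mavs, Tlr9 and Aim2. The matched stretches are shown with the matched bases in capitals, read 5′ to 3′ on the gene's own strand, since they belong to 4 genes whose signal moved together in the results that follow. A match describes the letters and is not evidence of binding.
Ddx58, before the start: tctaggttcagAAACGAAActggatccccg
Ddx58, at the start: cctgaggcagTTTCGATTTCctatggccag
Ifih1, after the start: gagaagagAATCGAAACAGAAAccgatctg
Eif2ak2, after the start: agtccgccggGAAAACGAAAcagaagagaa
Tlr3, before the start: aagtgaatggcTTTCACTTtgtttagacac
The stretches lie on the minus strand of GRCm38.p6, at chr4:40239866-40239895 and chr4:40239804-40239833 for Ddx58, chr2:62646206-62646235 for Ifih1, chr17:78882535-78882564 for Eif2ak2 and chr8:45410421-45410450 for Tlr3. The motifs cover positions -59 to -52 and 3 to 12 from the start in Ddx58, 29 to 42 in Ifih1, 19 to 28 in Eif2ak2 and -59 to -52 in Tlr3. The annotated Tlr3 gene reaches further upstream, to chr8:45411075. Its stretch therefore lies inside the gene, before a start other than the outermost.

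The signal is log2 intensity after RMA, so a difference of 1 is a doubling, and levels of different genes are not compared because their probes differ. The number of arrays limits the precision. Array medians were 4.09 to 4.20 in KO, 3.84 to 4.14 in TG, 4.24 to 4.30 in CD-1 and 4.53 to 4.60 in WT, so the strains sat on different scales and each strain was first compared with its own air group. The array of TG 0 ppm replicate 4 had the lowest median of all. Alveolar and endothelial markers (6 genes, among them surfactant and vessel genes) had a mean log2 signal of 11.5 to 11.9 over the 4 strains. The knocked-out gene, Cyp2f2, read 11.5 to 11.9 in KO, 11.5 to 12.0 in TG, 12.5 to 13.1 in CD-1 and 12.0 to 13.3 in WT. As deposited, every KO and every TG array was lower than every WT array. The lowest WT arrays were those at 40 ppm (12.0 to 12.6). Between the lowest of these and the highest KO and TG arrays, the gap was smaller than that between the array medians. In air the reading was 11.6 to 11.8 in KO, 11.5 to 11.9 in TG and 13.2 to 13.3 in WT. There KO and TG lay below WT by more than their array medians did. The signal stayed high in KO and TG. The labels do not say which part of the gene was removed, so this probe set does not check them.

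In WT lungs 6 sensor genes rose at every dose and did so already at 10 ppm: Zbp1, Dhx58, Ddx58, Ifih1, Eif2ak2 and Tlr3. Every dose was compared with the same 5 WT air arrays, so the doses are not independent observations of the rise. A shift in that air group would enter every dose alike. Zbp1 rose most, 8.12-fold at 10 ppm, 6.24-fold at 40 ppm and 5.97-fold at 120 ppm. All 15 exposed WT arrays lay above all 5 WT air arrays for each of these 6 genes, which 3.65% of all tested genes did. The adaptor Mavs and the single-stranded RNA receptor Tlr7 moved the other way by a smaller amount, and they passed the test at 120 ppm but not at 10 or 40 ppm. In limma, with Benjamini-Hochberg adjustment over all 11406 genes and a threshold of 0.05, 6 of 8 sensors were higher at 10 ppm, where 7.67% of all genes were called higher, 6 of 8 at 40 ppm (all genes, 13.7%) and 6 of 8 at 120 ppm (all genes, 14.3%). At 120 ppm 2 of 8 were lower, against 9.65% of all genes. The sensors were chosen with earlier results of these data known, so their counts beside all genes are a description. The median log2 difference of the 8 sensors was 1.28, 0.92 and 1.02 at 10, 40 and 120 ppm, and the median over all genes was -0.0026, -0.0064 and 0.0148.

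**Figure D1:**
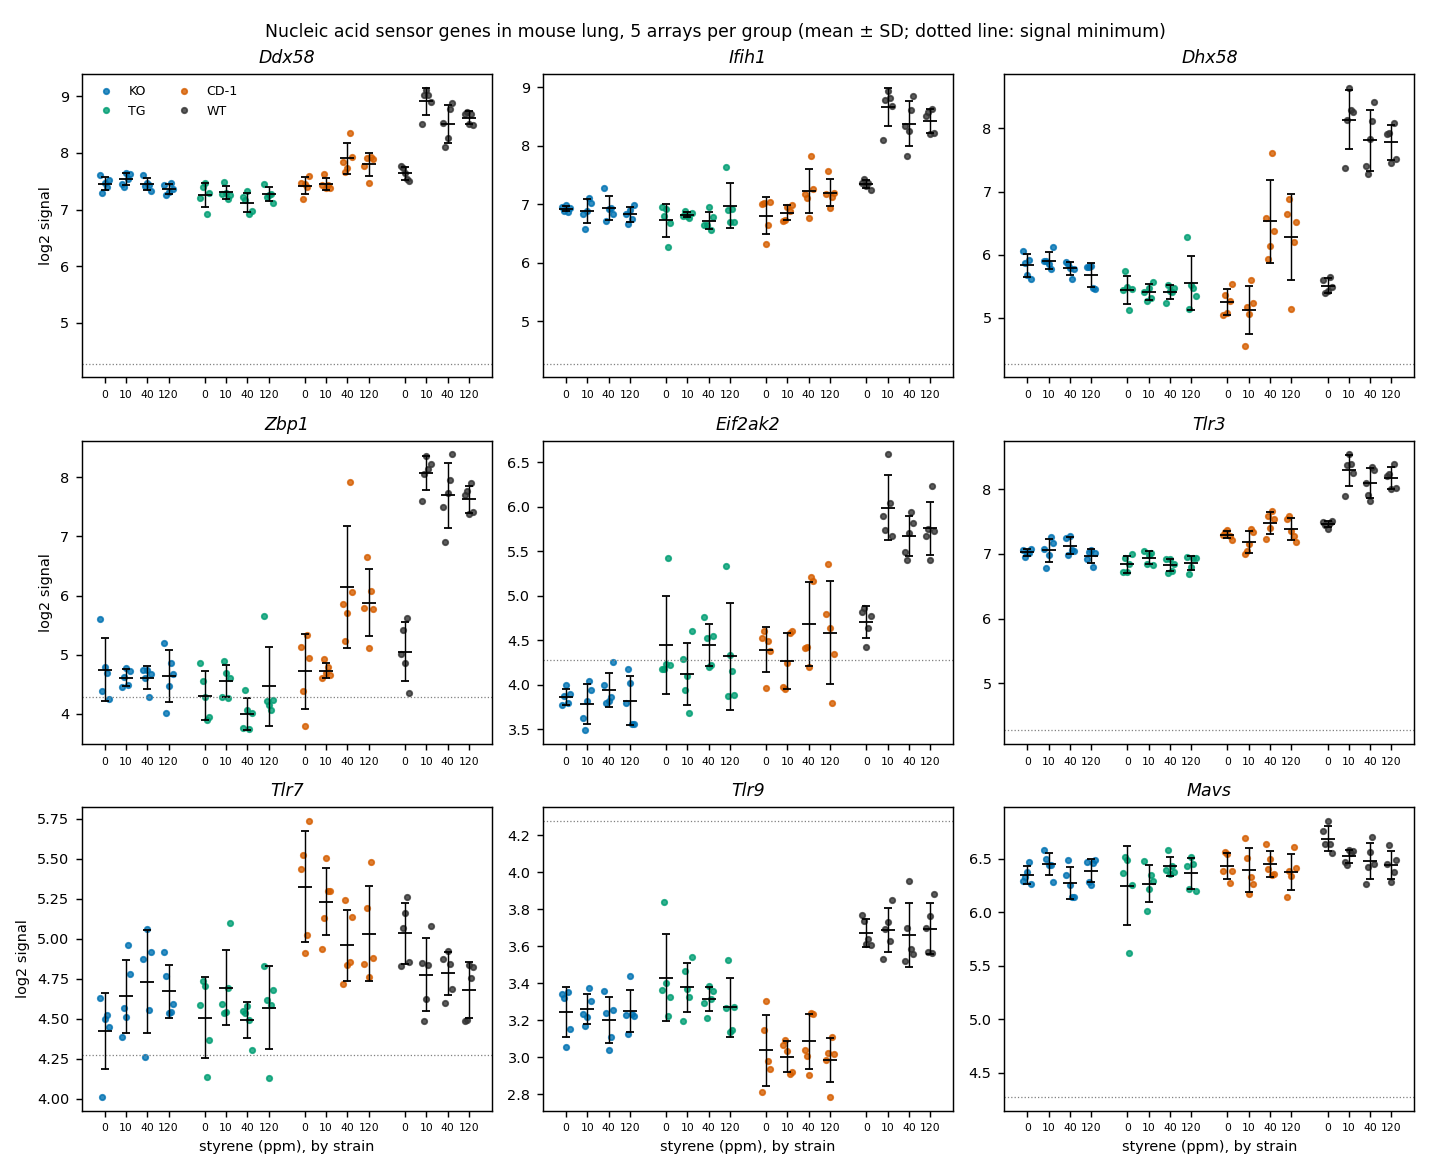
Log2 signal of the 9 measured sensor genes on each of the 80 arrays, by strain (KO, TG, CD-1, WT) and styrene dose in ppm; bars give the mean and SD of 5 arrays and the dotted line is the signal minimum of 4.28. In WT the exposed arrays of Ddx58, Ifih1, Dhx58, Zbp1, Eif2ak2 and Tlr3 all stand above the WT air arrays, while KO and TG stay level and CD-1 shifts at 40 and 120 ppm for Dhx58, Zbp1 and Ddx58 (not past the test).

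Zbp1, the sensor of Z-form nucleic acid, read 5.01, 5.42, 4.85, 5.62 and 4.35 on the WT arrays in air. It read 7.60, 8.05, 8.36, 8.14 and 8.23 at 10 ppm, 7.50, 6.90, 7.74, 7.95 and 8.39 at 40 ppm and 7.69, 7.77, 7.37, 7.90 and 7.41 at 120 ppm. The lowest exposed array, at 40 ppm, was still above the highest air array. The differences from air were 3.02 ± 0.24, 2.64 ± 0.24 and 2.58 ± 0.24 on the log2 scale (SE), with limma adjusted p of 6.7e-08, 3.5e-07 and 5.6e-07. A second Zbp1 probe set gave 2.99, 2.55 and 2.65.

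Dhx58 encodes LGP2, which has no signalling domain of its own and tunes RIG-I and MDA5. Its WT arrays read 5.60, 5.40, 5.42, 5.66 and 5.49 in air, 7.37, 8.13, 8.64, 8.29 and 8.27 at 10 ppm, 7.40, 7.28, 7.83, 8.12 and 8.42 at 40 ppm and 7.91, 7.93, 7.45, 8.09 and 7.51 at 120 ppm. The air arrays spanned less than the gap to the lowest exposed array. The rise was 2.63 ± 0.21, 2.30 ± 0.21 and 2.26 ± 0.21 (log2, SE), or 6.18-, 4.92- and 4.80-fold, with adjusted p of 7.6e-08, 4.2e-07 and 6.1e-07. One further Dhx58 probe set rose by 2.39, 1.95 and 1.97, while another, which was never above the signal minimum, differed by 0.02, 0.14 and -0.07.

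The signalling helicases followed at a smaller size. Ddx58, which encodes RIG-I, read 7.77, 7.73, 7.65, 7.54 and 7.51 on the WT air arrays, 8.51, 9.03, 9.11, 9.02 and 8.89 at 10 ppm, 8.53, 8.11, 8.26, 8.77 and 8.89 at 40 ppm and 8.69, 8.72, 8.50, 8.70 and 8.49 at 120 ppm. The differences were 1.27 ± 0.13, 0.87 ± 0.13 and 0.98 ± 0.13 (log2, SE), with limma adjusted p of 1.4e-06, 9.2e-05 and 3.1e-05. One further Ddx58 probe set rose by 1.37, 0.82 and 0.91. Another, above the signal minimum on 7 of 80 arrays, rose by 0.54, 0.39 and 0.49. Ifih1, which encodes MDA5, ran from 7.24 to 7.42 in air, 8.10 to 8.94 at 10 ppm, 7.82 to 8.84 at 40 ppm and 8.20 to 8.62 at 120 ppm. It rose by 1.32 ± 0.16, 1.03 ± 0.16 and 1.08 ± 0.16 (adjusted p 1.2e-05, 0.00014 and 9.5e-05), or 2.50-, 2.05- and 2.12-fold.

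Eif2ak2, the translation-stopping kinase, ran from 4.42 to 4.86 in WT air and from 5.68 to 6.59, 5.40 to 5.94 and 5.40 to 6.23 at 10, 40 and 120 ppm. Its rise was 1.29 ± 0.16, 0.97 ± 0.16 and 1.05 ± 0.16 (log2, SE; adjusted p 1.8e-05, 0.00028 and 0.00013). This probe set exceeded the signal minimum on 42 of 80 arrays, so its low end is close to the floor of the assay. Tlr3 was the one endosomal receptor that rose: 7.39 to 7.51 in air, 7.90 to 8.54 at 10 ppm, 7.82 to 8.35 at 40 ppm and 8.0 to 8.39 at 120 ppm. The difference was 0.83 ± 0.11, 0.63 ± 0.11 and 0.71 ± 0.11 (adjusted p 4.7e-05, 0.00053 and 0.0002), 1.78-, 1.55- and 1.63-fold, and a second probe set gave 1.05, 0.86 and 0.88.

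Tlr7 read 4.49, 4.50, 4.84, 4.75 and 4.82 on the WT arrays at 120 ppm, against 4.83, 5.07, 5.16, 5.26 and 4.86 in WT air, with one exposed array inside the range of the air arrays. It differed by -0.26 ± 0.11, -0.25 ± 0.11 and -0.36 ± 0.11 at 10, 40 and 120 ppm (log2, SE; adjusted p 0.14, 0.10 and 0.026), and its other probe sets, 2 in number, were never above the signal minimum. Mavs, the adaptor that RIG-I and MDA5 share, spanned 6.28 to 6.62 at 120 ppm and 6.55 to 6.85 in air. It differed by -0.17 ± 0.08, -0.21 ± 0.08 and -0.24 ± 0.08 (adjusted p 0.18, 0.054 and 0.028). Both falls are small, and each lost its call when any of several single arrays was left out or when all 80 arrays shared one fit (adjusted p 0.082 for Mavs and 0.081 for Tlr7). Tlr9 stayed between 3.52 and 3.95 on the WT arrays, below the minimum, and was not tested.

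The rise had no dose order that the test could see in WT. Between 40 and 10 ppm 0 of 8 sensors were called (0.947% of all genes, limma), between 120 and 10 ppm 0 of 8 (0.903%) and between 120 and 40 ppm 0 of 8 (0% of genes called, 839 at an unadjusted p under 0.05). All 6 rising genes had their highest mean at 10 ppm. Zbp1 at 120 ppm against 10 ppm differed by -0.45 ± 0.24 on the log2 scale (SE; adjusted p 0.44), with an interval of -0.95 to 0.06. Ddx58 at 40 ppm against 10 ppm, which had the lowest p of these comparisons, differed by -0.40 ± 0.13 (adjusted p 0.14). Averaged over the 3 doses, 6 of 8 sensors rose (16.3% of all genes higher) and Mavs and Tlr7 fell (13.3% lower), with rises of 2.75 ± 0.20 for Zbp1, 2.40 ± 0.17 for Dhx58, 1.15 ± 0.13 for Ifih1, 1.10 ± 0.13 for Eif2ak2, 1.04 ± 0.11 for Ddx58 and 0.72 ± 0.09 for Tlr3. Over the 3 doses too, the fall of Mavs lost its call when air replicate 1 or 3 of WT was left out (adjusted p 0.057 and 0.082), that of Tlr7 when air replicate 2, 3 or 4 was left out (0.052, 0.069 and 0.086), and both with all 80 arrays in one fit (0.058 and 0.070). In whole lung, a change in RNA per cell and a change in the share of cells that hold the RNA cannot be told apart.

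**Figure D2:**
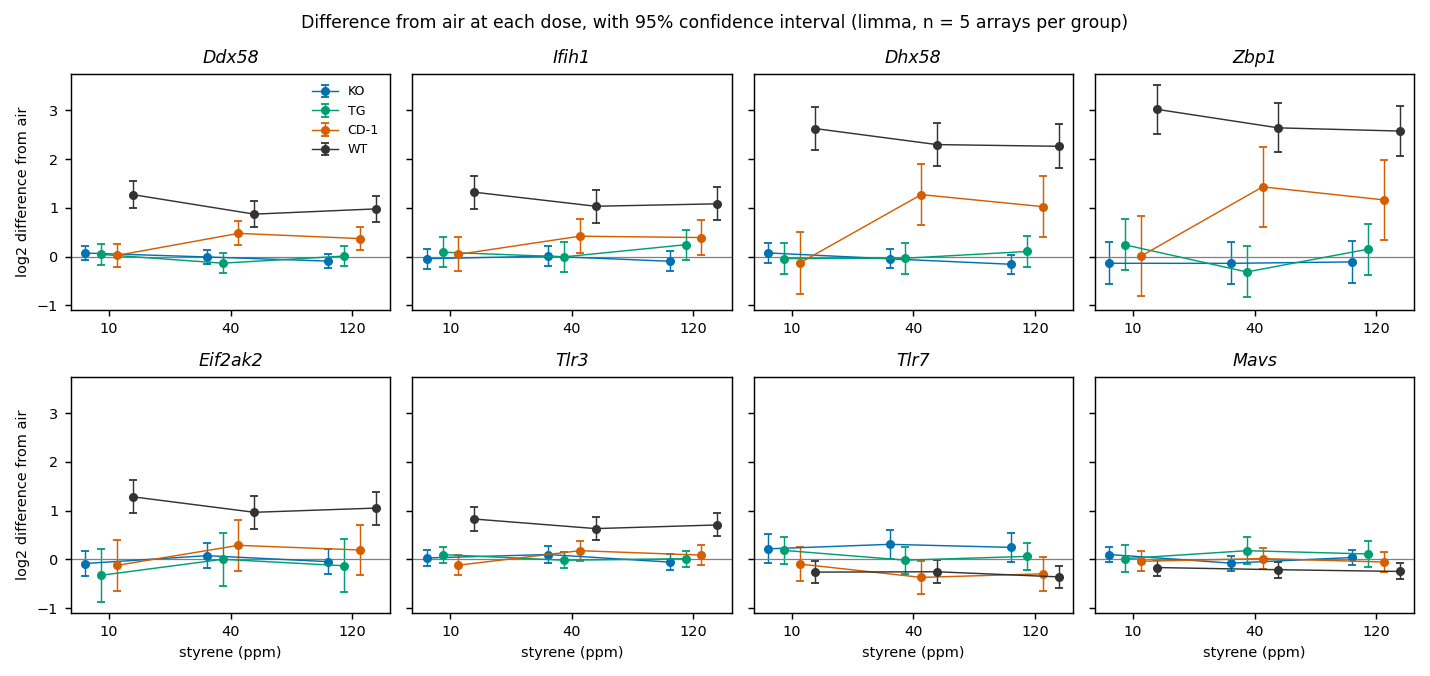
Log2 difference from the strain's own air group at 10, 40 and 120 ppm for the 8 tested sensor genes, with 95% confidence intervals (limma, 5 arrays per group), for KO, TG, CD-1 and WT. WT intervals of 6 genes clear 0 at every dose, with Zbp1 highest at 3.02. No KO or TG difference passes the adjusted test, and some of their intervals are wide (Eif2ak2 in TG at 10 ppm, -0.87 to 0.22). CD-1 rises at 40 and 120 ppm for Dhx58, Zbp1 and Ddx58 without passing the adjusted test.

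In KO lungs no sensor passed the test at any dose. The count was 0 of 8 at 10 ppm (0% of all genes called, 649 genes at an unadjusted p under 0.05, limma), at 40 ppm (0%, 564 genes), at 120 ppm (0%, 596 genes) and for the mean of the doses (0%, 644 genes). Zbp1 read 4.45, 4.63, 4.77, 4.48 and 4.73 at 10 ppm in KO, against 5.61, 4.39, 4.79, 4.69 and 4.25 in KO air, and the exposed arrays lay inside the air range. Over the 3 doses it differed by -0.13 ± 0.17 (log2, SE), with an interval of -0.48 to 0.23, and Dhx58 differed by -0.04 ± 0.08, with an interval of -0.20 to 0.12. Among the 6 genes that rose in WT, that upper bound for Zbp1 was the highest in KO over the 3 doses. Tlr7 was the sensor with the largest difference in KO, 0.26 ± 0.12, and did not pass (adjusted p 0.84). Eif2ak2, counted among the 8 sensors, lay below the signal minimum on all 20 KO arrays (3.49 to 4.25).

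TG lungs gave the same count. At 10 ppm 0 of 8 sensors passed (0% of all genes, 1579 at an unadjusted p under 0.05, limma), likewise at 40 ppm (0%, 867 genes), at 120 ppm (0.0701%) and for the mean of the doses (0.105%). Zbp1 over the 3 doses differed by 0.03 ± 0.20 (interval -0.40 to 0.45) and Dhx58 by 0.01 ± 0.12 (interval -0.24 to 0.27). The signal minimum was exceeded on 9 of 20 TG arrays for Zbp1 and on 8 of 20 for Eif2ak2. One array, TG 120 ppm replicate 1, was the highest of its group for Zbp1 at 5.66, Ifih1 at 7.63, Dhx58 at 6.28 and Eif2ak2 at 5.33, and the other TG 120 ppm arrays read 4.06 to 4.23 for Zbp1.

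In CD-1 lungs the sensors were higher at 40 and 120 ppm in mean signal for Dhx58, Zbp1, Ddx58 and Ifih1 by less than in WT, and none passed the adjusted test. At 10 ppm 0 of 8 were called (0% of all genes, 272 at an unadjusted p under 0.05, limma), at 40 ppm 0 of 8 (0.00877%), at 120 ppm 0 of 8 (0.0175%) and for the mean of the doses 0 of 8 (0.00877%). Dhx58 read 5.04, 5.36, 5.08, 5.27 and 5.53 in CD-1 air, 4.55, 5.17, 5.07, 5.60 and 5.23 at 10 ppm, 6.58, 5.93, 6.14, 7.62 and 6.38 at 40 ppm and 6.65, 6.88, 5.15, 6.20 and 6.53 at 120 ppm. The 40 ppm arrays were all above the air arrays, and the third array at 120 ppm stayed in the air range. The differences were -0.13 ± 0.30, 1.27 ± 0.30 and 1.03 ± 0.30 at 10, 40 and 120 ppm (log2, SE; adjusted p 1.0, 0.35 and 0.47).

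Zbp1 followed in CD-1 with 5.14, 4.38, 3.79, 5.34 and 4.94 in air, 4.60, 4.92, 4.68, 4.78 and 4.65 at 10 ppm, 5.85, 5.23, 5.70, 7.92 and 6.05 at 40 ppm and 5.79, 6.66, 5.11, 6.08 and 5.77 at 120 ppm. It differed by 1.43 ± 0.39 at 40 ppm and 1.16 ± 0.39 at 120 ppm (adjusted p 0.51 and 0.59). Ddx58 differed by 0.48 ± 0.12 at 40 ppm and 0.37 ± 0.12 at 120 ppm (adjusted p 0.35 and 0.53). Ddx58 and Dhx58 were the 2 of 9 measured sensors whose 5 CD-1 arrays at 40 ppm all lay above the 5 air arrays, which 0.491% of all genes did. Replicate 4 at 40 ppm was the highest CD-1 array for Zbp1, Dhx58, Ddx58 and Ifih1. With all 80 arrays sharing one estimate of the spread, 3 sensors were called at 40 ppm and 2 at 120 ppm in CD-1, where that fit called 44 and 115 of the 11406 genes, in place of 1 and 2. Set against CD-1 at 10 ppm, a comparison added after the data had been seen, Dhx58 differed by 1.40 ± 0.30 at 40 ppm and 1.16 ± 0.30 at 120 ppm (adjusted p 0.30 and 0.36), with 0 of 8 sensors called at 40 ppm (0% of all genes, 461 at an unadjusted p under 0.05) and 0 of 8 at 120 ppm (0%, 668 genes).

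The response itself, exposed minus own air, differed between each other strain and WT. Averaged over the 3 doses, the response of 6 of 8 sensors was lower in KO than in WT (9.43% of all genes lower), 6 of 8 in TG (5.15%) and 6 of 8 in CD-1 (3.27%), the same 6 genes each time. These comparisons share the WT arrays. For Zbp1 the difference was -2.87 ± 0.27 for KO, -2.72 ± 0.30 for TG and -1.88 ± 0.39 for CD-1 (log2, SE; adjusted p 6.1e-10, 1.9e-08 and 0.0031). For Dhx58 it was -2.44 ± 0.20, -2.38 ± 0.22 and -1.67 ± 0.31 (adjusted p 1.7e-11, 6e-10 and 0.0011). Ddx58, Ifih1, Eif2ak2 and Tlr3 differed by -0.70 to -1.19 for KO, -0.69 to -1.25 for TG and -0.67 to -0.98 for CD-1. The KO side of the Eif2ak2 value lay below the signal minimum on all arrays. On the TG side, Zbp1 exceeded it on 9 of 20 arrays and Eif2ak2 on 8 of 20.

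**Figure D3:**
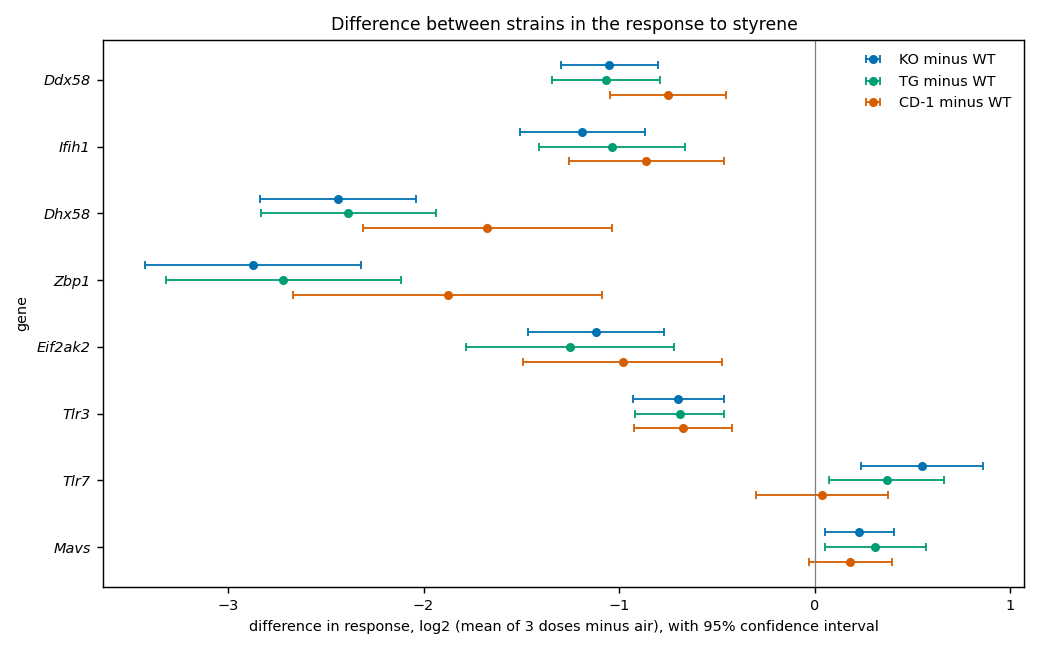
Difference in the response to styrene (mean of the 3 doses minus air, log2) of KO, TG and CD-1 from WT for the 8 tested sensor genes, with 95% confidence intervals from limma. Points left of 0 mark a smaller response than in WT; Zbp1 lies at -2.87 for KO, -2.72 for TG and -1.88 for CD-1, and Tlr7 lies right of 0 for KO at 0.55.

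By dose, the 6 genes had a lower response in KO at 10 ppm (4.48% of all genes lower), 40 ppm (7.11%) and 120 ppm (7.05%), and in TG at 10 ppm (2.65%), 40 ppm (3.78%) and 120 ppm (3.87%). The weakest of these calls was Eif2ak2 in TG at 40 ppm, -0.96 ± 0.32 with an adjusted p of 0.0495. Without TG 0 ppm replicate 4, which read 5.42 against 4.17 to 4.24 on the other TG air arrays, it was -0.72 with an adjusted p of 0.11. This call was lost without 25 of the 40 arrays in turn, and with the replicate number as a block it had an adjusted p of 0.054. Tlr7 responded more upward in KO than in WT for the mean of the doses, 0.55 ± 0.15 (adjusted p 0.011; 7.79% of all genes higher), at 40 ppm, 0.56 ± 0.19 (0.040; 6.83%), and at 120 ppm, 0.60 ± 0.19 (0.031; 4.39%). The call at 40 ppm was lost without 9 of 40 arrays in turn and that at 120 ppm without 7 of 40 (adjusted p up to 0.075). Both sides add to it: Tlr7 differed from air by 0.26 in KO and by -0.29 in WT.

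CD-1 differed from WT most at 10 ppm, where the response of 6 of 8 sensors was lower (1.53% of all genes). At 40 ppm 0 of 8 passed (0.789% of all genes lower; 1923 genes at an unadjusted p under 0.05 in either direction, limma), and without CD-1 40 ppm replicate 4 the count was 4, while the count over all genes was 707 in place of 184. At 120 ppm Ddx58, -0.61 ± 0.18 (adjusted p 0.042), and Tlr3, -0.62 ± 0.15 (0.015), were lower (2.69% of all genes). That count ran from 1 to 6 as single arrays were left out, with 6 sensors and 602 of all genes without CD-1 120 ppm replicate 2, and 4 sensors and 658 of all genes without CD-1 40 ppm replicate 4, against 498 of all genes with every array. Between TG and KO no difference in response passed the test (0 of 8 sensors; 0.0526% of all genes, 1263 at an unadjusted p under 0.05): for Zbp1 the TG response minus the KO response was 0.15 ± 0.28, with an interval of -0.41 to 0.72, and for Dhx58 0.05 ± 0.15, with an interval of -0.25 to 0.36.

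In air the strains were set against WT across the different array scales. As deposited, 5 of 8 sensors were lower in KO lungs (74.6% of all genes lower), 1 was higher (0.403%), 6 of 8 were lower in TG (79.6%) and 2 of 8 in CD-1 (48.6%), while the median difference over all genes was -0.36, -0.48 and -0.23. With each array centred on its median, 1 sensor was called in each strain. Dhx58 was higher in KO by 0.71 ± 0.10 (log2, SE; adjusted p 0.0002; 8.44% of all genes higher) and in TG by 0.45 ± 0.10 (adjusted p 0.0019; 22.1%). Tlr7 was higher in CD-1 by 0.60 ± 0.15 (adjusted p 0.0037; 24% of all genes). Quantile normalization gave the same 3 calls. As deposited, Dhx58 averaged 5.83 ± 0.18 in KO, 5.45 ± 0.22 in TG, 5.26 ± 0.20 in CD-1 and 5.51 ± 0.11 in WT (SD, n = 5 each), so its order between strains depends on the scaling.

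The other genes of these pathways were described from lists of named genes, by the WT response averaged over the 3 doses, in which 16.3% of all genes were called higher and 13.3% lower. Of 11 tested further sensors 3 rose: Ddx60, a helicase linked to RIG-I signalling, by 2.50 ± 0.19 (log2, SE; limma adjusted p 1.4e-08), Cgas, the cytosolic DNA sensor that makes cGAMP, by 0.47 ± 0.08 and Zc3hav1, which binds CpG-rich viral RNA, by 0.32 ± 0.06. Of 14 genes downstream of RIG-I-like receptors 4 rose and 1 fell, where 16.3% of all genes rose and 13.3% fell. Sting1, the receptor of cGAMP, rose by 0.75 ± 0.12, Trim25, a ubiquitin ligase of RIG-I, by 0.33 ± 0.07 and Azi2, a TBK1 adaptor, by 0.16 ± 0.05. Rnf135, another ubiquitin ligase of RIG-I, rose by 0.22 ± 0.08, while Rnf125, a ubiquitin ligase that limits RIG-I, fell by 0.26 ± 0.07. The median over that list was 0.12, against 0.0011 over all genes.

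Of 12 tested genes of endosomal Toll-like receptor signalling 5 rose and none fell in limma, against 16.3% of all genes higher and 13.3% lower. Irf7, the transcription factor that amplifies type I interferon, rose by 2.84 ± 0.18 (adjusted p 2.2e-09), Cd14 by 0.64 ± 0.09, the adaptor Myd88 by 0.60 ± 0.05 and Ticam1, the adaptor of TLR3, by 0.28 ± 0.06. Lgmn, an endosomal protease, rose by 0.20 ± 0.05. Of the 5 tested partners of ZBP1 in cell death 3 rose: Mlkl, the pore-forming effector of necroptosis, by 1.38 ± 0.11 (adjusted p 4.1e-08), Ripk3, its kinase, by 0.52 ± 0.09 and Fadd by 0.25 ± 0.07. Casp8 differed by 0.08 ± 0.07 and did not pass. Of 8 genes that clear or edit nucleic acid 2 rose, with 16.3% of all genes higher: Trex1, a DNA exonuclease, by 1.15 ± 0.10 and Adar, an RNA editor, by 0.61 ± 0.08.

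In WT over the 3 doses, 16.3% of all genes rose and 13.3% fell. None of the 7 tested PKR partners and sister kinases passed, and none of the 6 tested interferon receptors and kinases. Ifnar1 differed by -0.05 ± 0.06 and Ifngr1 by 0.12 ± 0.06. The interferon genes Ifnb1, Ifna2, Ifna4 and Ifng were below the signal minimum on all 80 arrays. Of 5 inflammasome genes Il18, a cytokine, fell by 0.41 ± 0.12 (adjusted p 0.012), and Il1b differed by 0.58 ± 0.24 (adjusted p 0.076). Over the 3 doses none of the 8 lists had a gene called in KO (0% of all genes called), TG (0.105%) or CD-1 (0.00877%). With so few genes called at all, this says little about the lists. In CD-1 at 40 ppm Irf7 differed by 2.06 ± 0.39 and Ddx60 by 1.30 ± 0.27 (limma adjusted p 0.26 and 0.35).

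**Figure D4:**
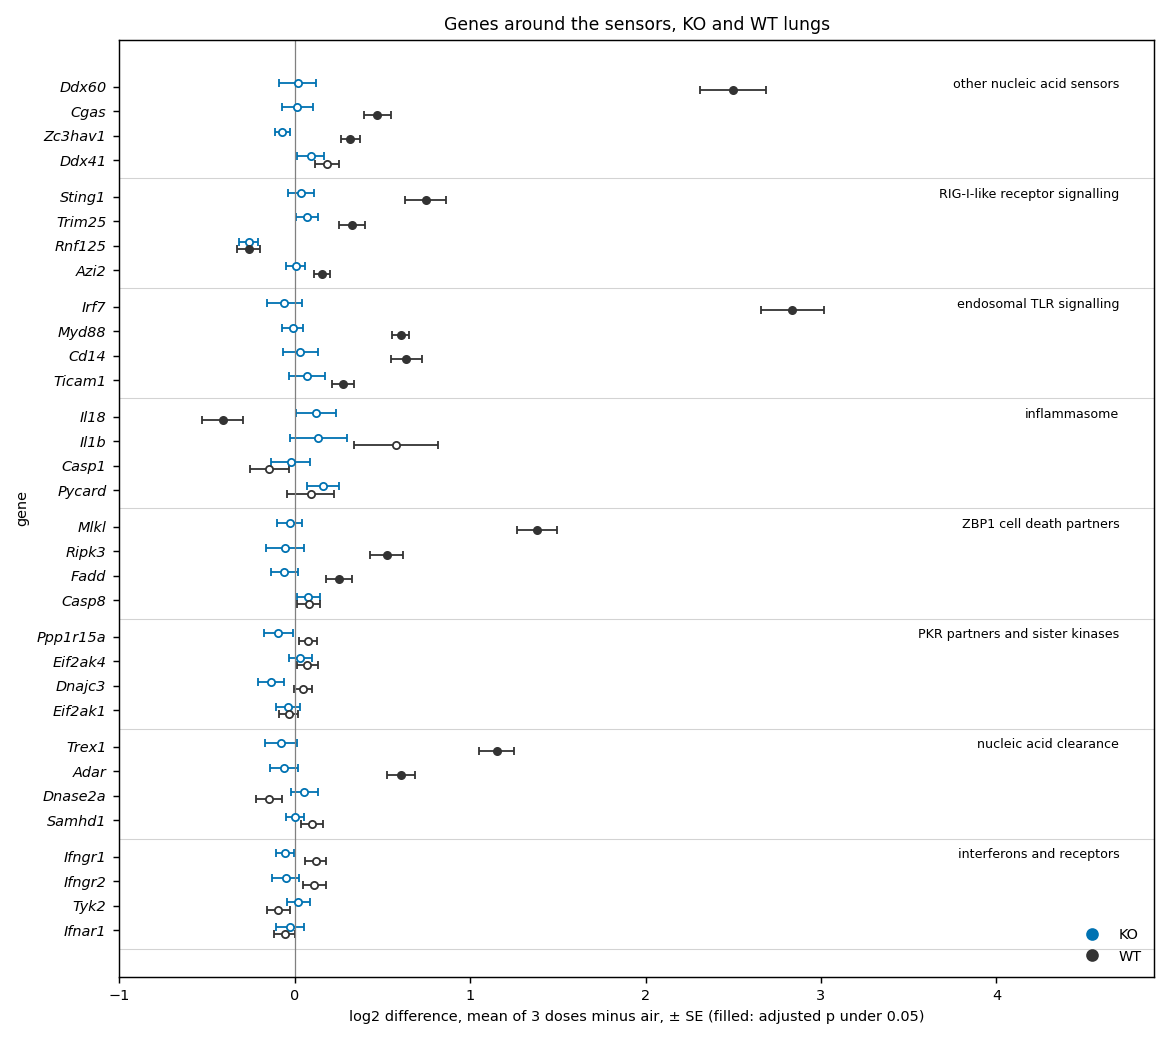
Log2 difference, mean of the 3 doses minus air, with SE, for up to 4 genes of lowest p in WT from each of 8 pathway lists, in KO and WT lungs; filled symbols have an adjusted p under 0.05. WT symbols for Irf7 (2.84), Ddx60 (2.50), Mlkl (1.38) and Trex1 (1.15) stand far from 0, and no KO symbol is filled.

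Over the 16 group means, each centred on its strain, the 6 rising sensors correlated with each other at Pearson r of 0.89 to 0.99, a range that includes the WT shift from air. Within the 15 exposed WT arrays, with no air array, the same pairs had r of 0.63 to 0.95, highest for Ddx58 with Ifih1. These points share arrays and the scaling of each array, and the values are descriptions. Over the group means the genes most like Dhx58 were Ddx60, Usp18 and Oasl2 (r 0.992 to 0.996), and those most like Zbp1 were Ddx60, Rtp4 and Phf11a (0.985 to 0.989). Ddx58 was nearest to Dtx3l, Phf11a and Parp9 (0.986 to 0.991), Ifih1 to Phf11a, Ifit2 and Mitd1 (0.981 to 0.985), Eif2ak2 to Isg20, Snrpa1 and Dnajb11 (0.955 to 0.966) and Tlr3 to Marchf5, Tor3a and Parp14 (0.971 to 0.974). Tlr7 was nearest to Stard3nl, Mthfs and Rassf6 (0.87 to 0.89) and Mavs to Fbxo31, Cyp4f13 and Akr1c18 (0.91 to 0.92).

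Markers of cell types that whole lung can hold were read beside the WT result over the 3 doses, where 16.3% of all genes rose and 13.3% fell. Of 4 tested plasmacytoid dendritic cell markers Cox6a2 fell by 0.49 ± 0.10 (log2, SE), and their mean signal was 6.55 to 7.29 on the exposed WT arrays and 6.61 to 7.30 in WT air. Of 7 macrophage markers Cd68 rose by 0.30 ± 0.09, while Siglecf fell by 0.90 ± 0.09 and Adgre1 fell by 0.30 ± 0.09, and their mean signal was 8.19 to 8.57 in exposed and 8.47 to 8.57 in air. Of 7 monocyte markers Ly6c1 rose by 0.35 ± 0.06 and Fcgr4 by 0.34 ± 0.11, with a mean signal of 6.63 to 7.02 in exposed and 6.59 to 6.89 in air. None of 4 conventional dendritic, 5 neutrophil and 5 B cell markers passed, 1 of 8 T and NK markers fell (Cd8a by 0.21 ± 0.08) and 1 of 6 alveolar and endothelial markers fell (Kdr by 0.25 ± 0.09). Of 7 club cell markers 6 fell, Cyp2f2 by 0.67 ± 0.07 and Cbr2 by 0.41 ± 0.05, and their mean signal was 11.6 to 12.7 in exposed and 12.3 to 12.8 in air. Defining markers below the signal minimum on all arrays were Pacsin1, Xcr1 and Pax5, and Ccr9 exceeded it on 1 array. The part of these markers in the sensors' change was not tested.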

How the data were processed

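The authors deposited log2 signal of 45037 probe sets on 80 arrays. RMA and Partek are named in the submitters' processing notes, and no version, setting or joint normalization of the strains is stated there or in the labels. The labels' protocols state Affymetrix 3' IVT labelling of RNA from whole lung. Values ran from 1.88 to 13.9. Of the probe sets, 28898 carried 1 symbol, 551 several and 15588 none; symbols were updated through RefSeq (GRCm38.p6). A gene was tested where its signal exceeded 4.28, the median of all values, in at least 5 arrays. limma 3.58.1 in R 4.3.3 (with data.table, version 1.17.8) fitted each strain alone with a mean per dose, pairs of strains together for response differences and the 20 air arrays for baselines. Figures used matplotlib 3.10.9 in Python 3.11.15. P-values set each difference against the spread between mice of the same group, pooled over the groups in a fit and moderated by limma. The sensors, the 8 pathway and 9 cell marker lists and the tests were chosen with earlier results of these data known. All sensors are named; per pathway list up to 4 and per marker list up to 2 genes of lowest p in WT over the 3 doses, and the 3 genes most like each sensor. Rnf135, Lgmn and Cd68 were named after their values were seen. The scripts were tested on simulated data. Alternatives were another filter, none, every probe set, array centring, quantile normalization, trend and robust settings, array weights, a replicate block, one fit of all arrays and each array left out. Replicate numbers did not pair samples: deviations of same-numbered arrays had median correlations of -0.02 to 0.05 within strains.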

Additional observations from a re-analysis of the deposited data

Results flagged for a closer look

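Dixon's test at the 95% level flags about 1 in 20 independent sets by chance. Single arrays stood apart by it in 6 of the 144 sets of 5 arrays examined (9 sensors, 16 groups). They were Ddx58 at 7.62 in CD-1 10 ppm replicate 2, Ifih1 at 7.63 and Zbp1 at 5.66 in TG 120 ppm replicate 1, Eif2ak2 at 5.42 in TG 0 ppm replicate 4, Tlr7 at 5.10 in TG 10 ppm replicate 5 and Tlr9 at 3.84 in TG 0 ppm replicate 2, each the highest of its group. All of these but the Ddx58 array were in TG. The sets of different sensors share arrays, so the flags are not independent of each other. TG 0 ppm replicate 4 also had the lowest array median.

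Responses, as the mean of the 3 doses minus air, differed between strains by limma's test of the difference. KO minus WT was -1.05 for Ddx58, -2.44 for Dhx58, -1.12 for Eif2ak2, -1.19 for Ifih1, -0.70 for Tlr3, 0.55 for Tlr7 and -2.87 for Zbp1. TG minus WT was -1.07 for Ddx58, -2.38 for Dhx58, -1.25 for Eif2ak2, -1.04 for Ifih1, -0.69 for Tlr3 and -2.72 for Zbp1. CD-1 minus WT was -0.75 for Ddx58, -1.67 for Dhx58, -0.98 for Eif2ak2, -0.86 for Ifih1, -0.67 for Tlr3 and -1.88 for Zbp1, and at 120 ppm -0.61 for Ddx58 and -0.62 for Tlr3.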

How the results depend on the processing

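The 6 rises in WT kept their call and direction at every dose under every alternative and with every array left out in turn. Every dose shared the same WT air group. The count of sensors called at CD-1 40 ppm was 3, and at CD-1 120 ppm 2, in place of 0 with all 80 arrays in one fit, where all-gene counts were 44 and 115 in place of 1 and 2. It was 0 to 1 for WT 40 against 10 ppm with single arrays left out, where all-gene counts were 53 to 276, against 108. For CD-1 minus WT the count was 4 at 40 ppm and 6 at 120 ppm with array weights, in place of 0 and 2. At 120 ppm it was 1 with no filter or with every probe set tested. With single arrays left out it was 0 to 4 at 40 ppm and 1 to 6 at 120 ppm. Over all genes the settings gave 123 to 602 at 40 ppm, against 184, and 417 to 913 at 120 ppm, against 498. Left-out arrays gave 88 to 707 and 326 to 658. In air, centring or quantile normalization left 1 sensor each in KO, TG and CD-1. In CD-1 trend and robust settings also gave 1 and array weights 6, and single arrays left out gave 1 to 6. All-gene counts for CD-1 in air were 3807 to 14163 over the settings, some of which tested more genes, against 6090. With arrays left out they were 5521 to 6773. Among air differences called as deposited, centring and quantile normalization turned the sign for Mavs in KO (0.0554 and 0.0453) and TG (0.0767 and 0.10), Ddx58 in TG (0.13 and 0.11) and Tlr3 in CD-1 (0.15 and 0.0906), and quantile normalization that of Tlr7 in TG (0.0171), none passing. Dhx58 in TG, -0.0645 and not called as deposited, turned to 0.45 and 0.50 and was called. The uncalled differences of Ddx58 and Zbp1 in KO, Eif2ak2 in TG and Ddx58, Dhx58 and Mavs in CD-1 also turned under both and did not pass.

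The falls of Mavs and Tlr7 in WT at 120 ppm lost their call without any of 5 arrays each (Mavs, WT 0 ppm replicates 1 and 3 and WT 120 ppm replicates 1, 3 and 4; Tlr7, WT 0 ppm replicates 2, 3 and 4 and WT 120 ppm replicates 1 and 2), and the higher Tlr7 response of KO at 40 ppm without 9 of 40 arrays and at 120 ppm without 7 of 40. Eif2ak2 in TG at 40 ppm lost it without 25 of 40 arrays, with no filter, with every probe set tested and with the replicate block (-0.96, adjusted p 0.054); the block moved no count of sensors by over 1.5 times. All-gene counts moved by more than that in several comparisons. Among them were WT 10 ppm with arrays left out (919 to 1784, against 1434) and TG over the 3 doses with all arrays in one fit (280 against 12). CD-1 minus WT at 40 ppm moved with array weights (602 against 184) and without CD-1 40 ppm replicate 4 (707). Over the settings the count reached 222 for TG 10 ppm, against 0, and 119 for TG 120 ppm, against 8. It reached 377 for WT 120 against 10 ppm, in place of 103, and 1060 for CD-1 minus WT over the 3 doses, in place of 618. The cause was not tested. With 5 arrays a group, the intervals above bound what could be seen, and Eif2ak2 in KO and Tlr9 lay below the signal minimum on all their arrays.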
